A study of Mus musculus with 16 samples.

Results

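The Ink4 and Cip/Kip genes encode the inhibitors of the cyclin-dependent kinases that drive cells from G1 into S phase, and they were followed here across every cell type of a study of reprogramming with human artificial chromosomes. The members were all probes whose gene name was Cdkn1a, Cdkn1b, Cdkn2a, Cdkn2b, Cdkn2c or Cdkn2d, which gave 9 probes for 6 genes among 41174 probes, and each gene was measured on all 16 arrays. The proteins of the Ink4 genes bind Cdk4 and Cdk6 and keep them from pairing with D-type cyclins, whereas the Cip/Kip proteins act mainly on cyclin E and cyclin A complexes with Cdk2. Cdkn2a also encodes Arf, which restrains Mdm2 and so stabilizes p53, and Cdkn1a is the best known target of p53. These genes are known as barriers to reprogramming because fibroblasts that arrest or senesce rarely form iPS colonies.

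The samples were 1 culture of mouse embryonic fibroblasts (MEF) from C57BL/6, the ES lines B6ES (C57BL/6) and TT2 (C57BL/6 x CBA), the retroviral iPS line 20D17 (C57BL/6 x DBA), and 3 groups of 4 iPS lines derived from C57BL/6 fibroblasts. The iHAC1-iPS lines (1-A3, 1-B, 1-C3 and 1-D6) carried an artificial chromosome with 2 copies each of Klf4, c-Myc, Sox2 and Oct4 under the CAG promoter. The iHAC2-iPS lines (2-B1, 2-C6, 2-E and 2-N) carried the same cassettes with 2 more copies of Oct4 and a short hairpin RNA against p53 driven by the H1 promoter. The iHAC-free iPS lines had lost iHAC2, and F-B1 came from 2-B1, F-C5 from 2-C6, F-E4 from 2-E and F-N7 from 2-N. Each iHAC1-iPS, iHAC2-iPS and iHAC-free line is 1 clone or subclone on 1 array, so the spread within these groups is that between clones. The ES lines differ in strain, so line and strain cannot be told apart in the ES spread. MEF and 20D17 have 1 array each. The ES and iPS lines were kept on growth-arrested fibroblast feeders. All values are log2 levels with the array's 75th percentile set to 0, so that a level of 1 lies 2-fold above that percentile, and levels of different probes are not set against each other. RNA of another cell type and more or less RNA per cell cannot be told apart in such samples.

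The lines labelled iHAC1-iPS had much lower levels of most pluripotency markers than ES and the other iPS lines, and this bears on every comparison that uses them. Of 9 measured markers, 8 were called lower in iHAC1-iPS than in ES, among them Zfp42, Esrrb and Dppa3, and the summed marker level ran from -0.01 to 3.72 in iHAC1-iPS against 7.90 to 9.72 in iHAC2-iPS, 9.01 to 9.31 in iHAC-free iPS, 8.83 to 9.22 in ES and -1.08 in MEF. Dppa5a, at 8.70 in ES, weighs most in that sum. All 9 markers were also below ES in iHAC2-iPS, with 2 called lower beside 6.8% of all probes. The median log2 difference from ES was -1.83 in iHAC2-iPS and -8.48 in iHAC1-iPS. Of the 9, 5 to 8 were still well above background in each iHAC1-iPS line, against 7 to 9 in iHAC2-iPS and 6 in MEF, and the mean log2 level of Gbx2 was -0.63 in iHAC1-iPS and -2.41 in iHAC2-iPS. The summed level of 18 fibroblast markers was 8.43 to 9.45 in iHAC1-iPS, 8.93 in MEF and 6.87 to 8.23 in ES. Their mean log2 level was 2.51 to 3.48 in iHAC1-iPS, 3.78 in MEF and 0.78 to 2.19 in ES. On each array 54.2% to 65.8% of spots read well above background, and none was saturated. The iHAC2-iPS and iHAC-free arrays were scanned in a different session from the others, so that scan session cannot be told apart from group when they are compared with ES or iHAC1-iPS.

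The Cdkn2a locus produces its 2 proteins from separate starts, and the array cannot distinguish them: the single Cdkn2a probe (chr4:88920545-88920604, mm9, minus strand) is listed under the accessions of both transcript variants. The study's own PCR primers show how the messages differ, with a forward primer in each first exon and one reverse primer, in capitals, that serves both.
mArf-F: gccgcaccggaatcct
mInk4a-F: cgtaccccgattcaggtgat
mArf-R and mInk4a-R: TTGAGCAGAAGAGCTGCTACGT
The 250 bases before each Cdkn2a start (RefSeq, GRCm38.p6, minus strand) are shown because the gene's level below may come from either start. Capitals mark GC boxes (GGGCGG on either strand).
Cdkn2a, upstream start, chr4:89294620-89294869: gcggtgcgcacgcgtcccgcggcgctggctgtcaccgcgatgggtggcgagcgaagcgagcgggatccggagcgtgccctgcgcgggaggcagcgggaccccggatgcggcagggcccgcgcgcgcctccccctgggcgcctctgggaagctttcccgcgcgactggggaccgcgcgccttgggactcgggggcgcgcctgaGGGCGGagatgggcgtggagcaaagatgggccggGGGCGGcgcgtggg
Cdkn2a, downstream start, chr4:89282193-89282442: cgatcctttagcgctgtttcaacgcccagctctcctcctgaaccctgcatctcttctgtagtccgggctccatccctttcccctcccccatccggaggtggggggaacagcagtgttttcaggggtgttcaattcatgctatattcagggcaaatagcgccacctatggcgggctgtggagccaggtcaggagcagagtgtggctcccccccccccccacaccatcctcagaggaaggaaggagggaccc
The upstream window was 78.4% G or C with 2 GC boxes, and the downstream window was 60% G or C with none. A GC box occurred in 32.7% of the 32851 windows of this length in the table.

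Cdkn1a has 2 annotated starts as well, and their windows are shown because its regulator p53 is the target of the hairpin in iHAC2. Capitals mark GC boxes and single matches to the p53 half-site consensus (both strands, matches do not overlap GC boxes).
Cdkn1a, first start, chr17:29090729-29090978, plus strand: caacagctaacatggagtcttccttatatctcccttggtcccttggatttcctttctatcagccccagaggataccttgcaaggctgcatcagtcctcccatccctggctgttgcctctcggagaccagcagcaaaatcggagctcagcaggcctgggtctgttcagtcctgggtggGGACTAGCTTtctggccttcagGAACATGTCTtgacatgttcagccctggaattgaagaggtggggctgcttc
Cdkn1a, second start, chr17:29093519-29093768, plus strand: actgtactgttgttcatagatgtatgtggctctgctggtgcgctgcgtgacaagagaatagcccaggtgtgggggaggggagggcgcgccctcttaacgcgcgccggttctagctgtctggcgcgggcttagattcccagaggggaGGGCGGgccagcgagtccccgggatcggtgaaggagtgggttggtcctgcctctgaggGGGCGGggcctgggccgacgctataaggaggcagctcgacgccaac
The first window held 2 half-site matches, against 7.13% of all windows with at least 1, and the second held none but had 2 GC boxes. An E-box (CACGTG), the sequence bound by c-Myc, was in neither Cdkn1a window and in 6.02% of all windows. The fibroblasts that became iHAC lines were also given miR-294 and miR-295 mimics during reprogramming, members of a miRNA family known to repress Cdkn1a. The mature 3p strands (RefSeq) share the seed AAGUGCU, which is in capitals below, though which strand the mimics held is not given in the sources used here.
mmu-miR-294-3p: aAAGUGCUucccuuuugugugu
mmu-miR-295-3p: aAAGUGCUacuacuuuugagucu

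Cdkn1a, which encodes p21/Cip1, was highest in MEF, next highest in iHAC1-iPS and lowest in ES. Its level was 4.21 in MEF, 1.15 in B6ES, 2.03 in TT2 and 2.62 in 20D17. The iHAC1-iPS lines stood at 3.25 in 1-A3, 3.27 in 1-B, 3.01 in 1-C3 and 3.23 in 1-D6. The iHAC2-iPS lines stood at 2.66 in 2-B1, 2.84 in 2-C6, 2.43 in 2-E and 2.09 in 2-N, and the iHAC-free lines at 1.76 in F-B1, 2.35 in F-C5, 2.08 in F-E4 and 2.06 in F-N7. All 4 iHAC1-iPS lines therefore lay above every iHAC2-iPS, iHAC-free and ES array and below MEF, whereas iHAC2-iPS overlapped with iHAC-free iPS. How many of all probes set iHAC1-iPS apart in this way was not counted. The array carries this probe (chr17:29237377-29237436, mm9) in 10 spots, whose SD within an array was at most 0.043 on the log2 scale.

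**Figure D1:**
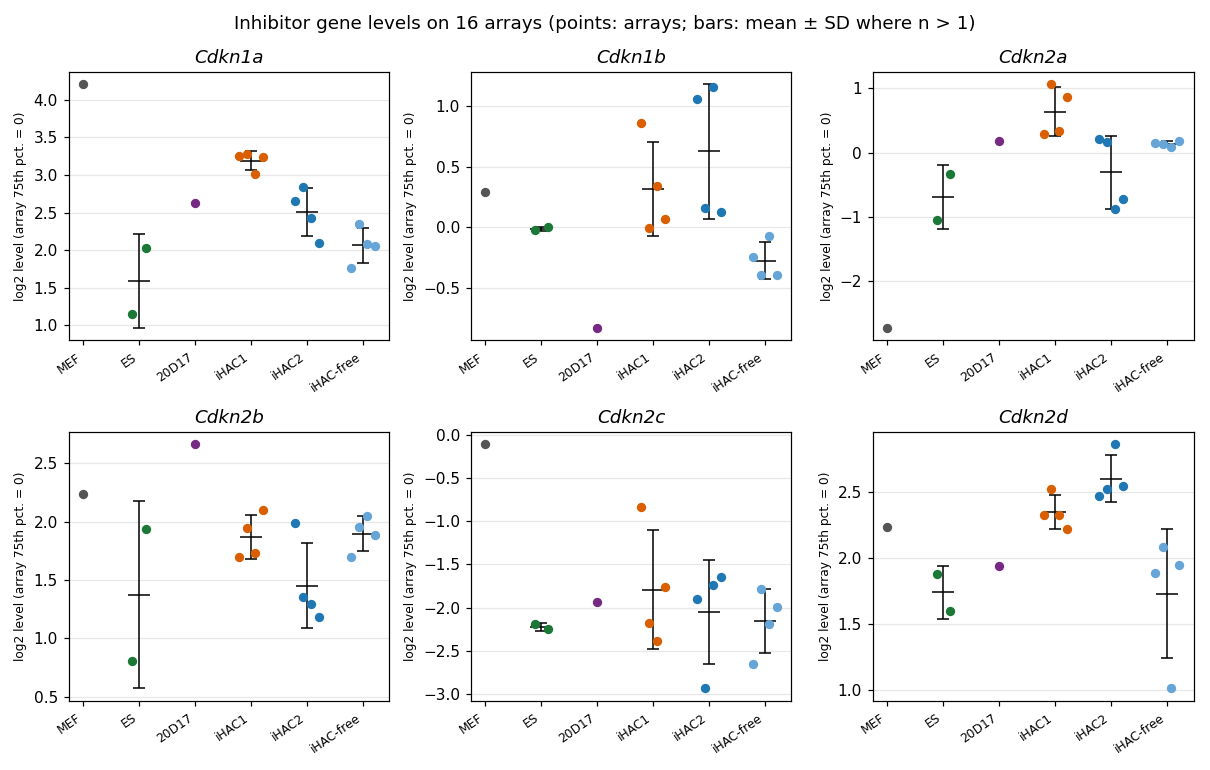
Level of the 6 inhibitor genes on 16 arrays, 1 panel per gene (y axis, log2 level with the array's 75th percentile at 0; x axis, groups; points, arrays; bars, mean ± SD where a group has more than 1 array). Cdkn1a was highest in MEF at 4.21, where Cdkn2a was lowest at -2.73.

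Group means for Cdkn1a were, as mean ± SD, 1.59 ± 0.63 for ES (n = 2), 3.19 ± 0.12 for iHAC1-iPS (n = 4), 2.51 ± 0.32 for iHAC2-iPS (n = 4) and 2.06 ± 0.24 for iHAC-free iPS (n = 4). In a limma fit of all arrays, with a call requiring an adjusted p (Benjamini-Hochberg over 31415 probes) under 0.05 and at least a 2-fold difference, Cdkn1a was 3.03-fold higher in iHAC1-iPS than in ES (log2 difference 1.60, SE 0.26, adjusted p = 0.00175) and 2.19-fold higher than in iHAC-free iPS (log2 difference 1.13, SE 0.21, adjusted p = 0.0018). Cdkn1a in iHAC1-iPS exceeded that in iHAC2-iPS 1.61-fold (log2 0.69, SE 0.21, adjusted p = 0.0258), past the p but under 2-fold. The same held for iHAC2-iPS against ES (1.89-fold, log2 0.92, SE 0.26, adjusted p = 0.0436), but this rested on single arrays. The difference was 0.47 without B6ES (adjusted p = 0.37), 1.36 without TT2 (adjusted p = 0.0509) and 1.05 without 2-N (adjusted p = 0.0244, past both limits), and with only the compared groups fitted the adjusted p was 0.202. Between iHAC-free iPS and ES the log2 difference was 0.47 (95% interval -0.10 to 1.04, adjusted p = 0.328), and for iHAC2-iPS minus iHAC-free iPS it was 0.44 (interval -0.02 to 0.91, adjusted p = 0.297), so neighbours at the low end of the order were not separated. In each of the 4 pairs the iHAC2-iPS line was above its iHAC-free line, by 0.03 to 0.90.

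The excess of Cdkn1a over ES in iHAC1-iPS was also present within a slide, where 1-D6 was 1.64 above the mean of B6ES and TT2, and it ranged from 1.16 to 2.04 when single arrays were left out. Beside the Cdkn1a difference from ES, 8 of the 18 fibroblast markers were called higher in iHAC1-iPS than in ES, where 14.3% of all probes were called, including Col1a1 (log2 difference 2.17) and Fap (3.23, with 1 of the 2 ES arrays well above background). Beside the Cdkn1a difference from iHAC-free iPS, 1 of the 18, Pdgfrb, was called higher, where 20.1% of all probes were called. Within iHAC1-iPS the summed fibroblast level was 9.12 in 1-A3, 8.58 in 1-B, 8.43 in 1-C3 and 9.45 in 1-D6, and 1-C3 was lowest in both measures. The line 20D17 had a sum of 8.94, near the 8.93 of MEF, with Cdkn1a at 2.62 against 4.21. The markers behind these sums differed, however. S100a4 was at 7.13 in 20D17 and 5.03 in MEF, and Thy1 at 6.37 and 3.66, while Col3a1 was at 2.45 and 5.31. The mean log2 level of the 18 markers was 2.95 in 20D17 and 3.78 in MEF. The part of fibroblast RNA in the Cdkn1a difference was not tested.

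**Figure D2:**
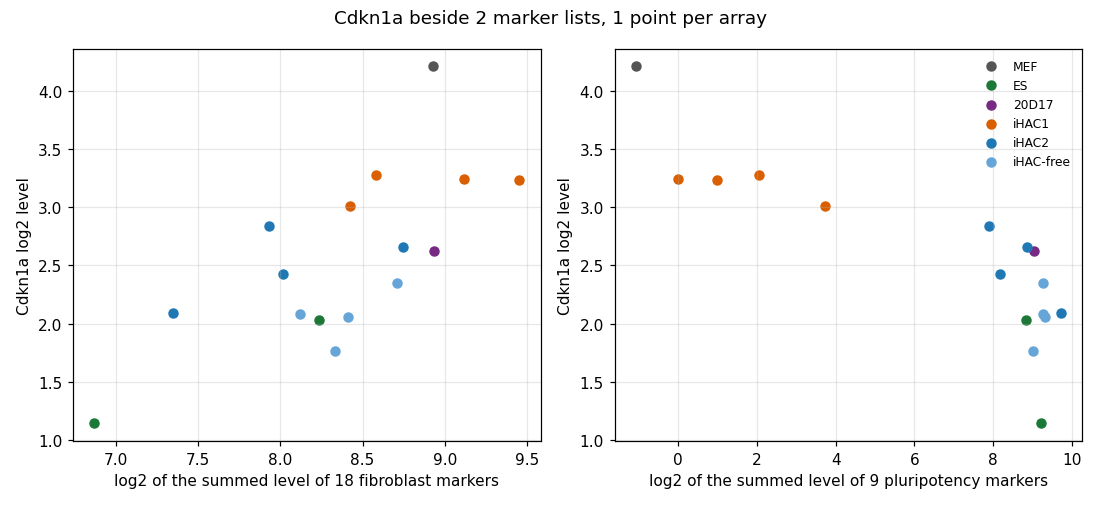
Cdkn1a level (y axis, log2) on each array against the log2 of the summed level of 18 fibroblast markers (left) and 9 pluripotency markers (right), coloured by group. The 4 iHAC1-iPS arrays lie between -0.01 and 3.72 on the pluripotency axis, apart from all other iPS and ES arrays, and between 3.01 and 3.27 for Cdkn1a.

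The other Cip/Kip member, Cdkn1b, encodes p27/Kip1, which holds Cdk2 complexes inactive in quiescent cells. Its 3 probes lie on the plus strand of chromosome 6 (mm9), and the brightest, at chr6:134875215-134875274, stood for the gene. By this probe the level was 0.30 in MEF, -0.83 in 20D17, -0.025 in B6ES and -0.00061 in TT2. It was 0.86 in 1-A3, -0.0033 in 1-B, 0.34 in 1-C3 and 0.07 in 1-D6, and 1.06 in 2-B1, 0.16 in 2-C6, 1.16 in 2-E and 0.13 in 2-N. All 4 iHAC-free lines were negative, at -0.25 in F-B1, -0.40 in F-C5, -0.07 in F-E4 and -0.39 in F-N7, below every iHAC2-iPS, iHAC1-iPS and ES array by this probe. How many of all probes set iHAC-free iPS apart in this way was not counted. The lowest array of all was 20D17.

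By the brightest probe, Cdkn1b was not called in any of the 6 comparisons. Its widest difference was between iHAC2-iPS (0.63 ± 0.56, n = 4) and iHAC-free iPS (-0.28 ± 0.15, n = 4), 1.87-fold (log2 0.90, SE 0.26, adjusted p = 0.119), and without 2-N it was 1.07 with an adjusted p of 0.0411. Each iHAC2-iPS line exceeded the iHAC-free line derived from it, by 0.52 to 1.30. Against ES, the difference was 0.33 in iHAC1-iPS (interval -0.37 to 1.03), 0.64 in iHAC2-iPS (interval -0.06 to 1.33) and -0.26 in iHAC-free iPS (interval -0.96 to 0.43).

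A different part of the Cdkn1b message gave a different order. The probe at chr6:134871103-134871161 (mm9), in 10 spots with a median SD of 0.137 between spots, was dim but above background on all arrays. It read -2.68 in 2-B1, -2.89 in 2-C6, -1.97 in 2-E and -3.19 in 2-N, against -3.10 in 1-A3, -3.99 in 1-B, -3.53 in 1-C3 and -4.13 in 1-D6, so that 1-A3 lay within the iHAC2-iPS range. The iHAC-free lines read -3.39 in F-B1, -3.56 in F-C5, -3.21 in F-E4 and -3.46 in F-N7. B6ES read -3.56 and TT2 -3.28. Here the iHAC-free lines were again below every iHAC2-iPS array, but they overlapped with iHAC1-iPS and ES. By this probe Cdkn1b was called lower in iHAC1-iPS than in iHAC2-iPS (log2 difference -1.005, SE 0.27, adjusted p = 0.0128), while the brightest probe gave -0.31 (SE 0.26, adjusted p = 0.368) for the same pair. The remaining probe (chr6:134873606-134873665) was well above background on 1 array only, 2-C6, at -2.49.

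**Figure D3:**
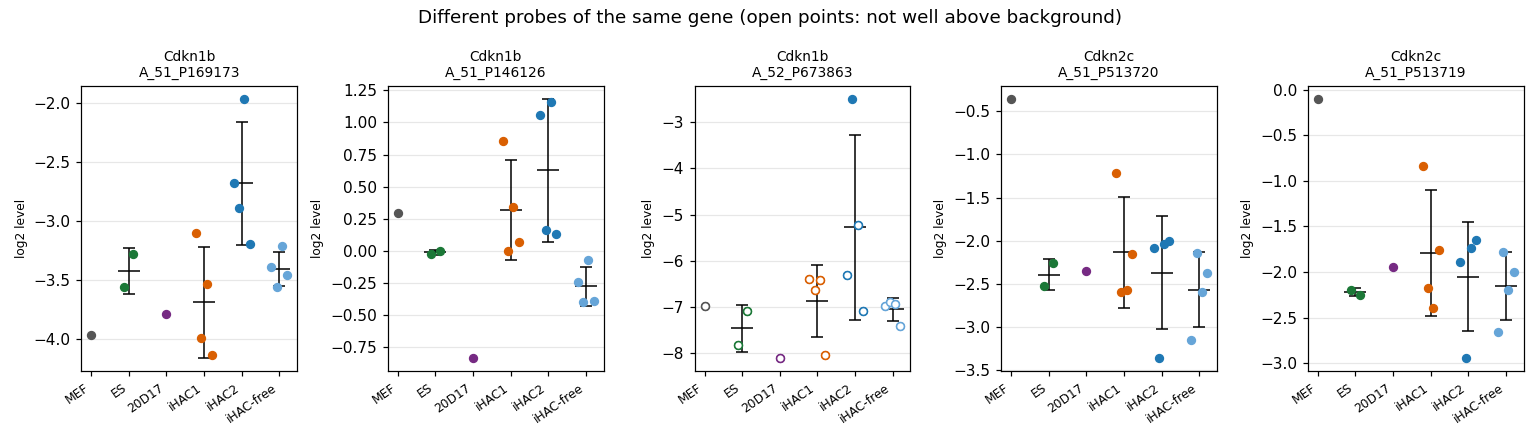
Log2 levels (y axis) by group (x axis) for the 3 Cdkn1b probes and the 2 Cdkn2c probes, with 1 point per array, open where the probe was not well above background, and bars for mean ± SD. The Cdkn1b probe in the middle was above background only on 2-C6, and both Cdkn2c probes placed MEF highest.

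Cdkn2a, the gene of p16/Ink4a and Arf, ran opposite to Cdkn1a in the starting cells: it was lowest in MEF, at -2.73, where Cdkn1a was highest. The ES lines stood at -1.04 in B6ES and -0.34 in TT2, and 20D17 at 0.19. The iHAC1-iPS lines stood at 0.29 in 1-A3, 1.07 in 1-B, 0.34 in 1-C3 and 0.86 in 1-D6. The iHAC2-iPS lines fell into 2-B1 at 0.21 and 2-C6 at 0.17, and 2-E at -0.88 and 2-N at -0.72. The iHAC-free lines were close together, at 0.16 in F-B1, 0.14 in F-C5, 0.08 in F-E4 and 0.18 in F-N7. Every iPS and ES array was thus above MEF, the nearest of them being B6ES (MEF minus B6ES, -1.68), and all iHAC1-iPS arrays were above all ES, iHAC2-iPS and iHAC-free arrays. As for Cdkn1a, the share of all probes with such a separation was not counted.

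Cdkn2a averaged 0.64 ± 0.39 in iHAC1-iPS (n = 4) and -0.69 ± 0.50 in ES (n = 2), a 2.51-fold difference (log2 1.33, SE 0.34, adjusted p = 0.0171, limma). With slide as a block, where only 1-D6 shares a slide with the ES arrays, the difference was 1.55 with an adjusted p of 0.0928, and without B6ES it was 0.98 with an adjusted p of 0.204, so the call depended on that ES line. Cdkn1a and Cdkn2a were the 2 of 6 inhibitor genes called in iHAC1-iPS against ES, where 14.3% of all probes were called. Without B6ES 1 of the 6 was called, and without TT2 there were 3, Cdkn2b being the third. Cdkn2a was also 1.93-fold higher in iHAC1-iPS than in iHAC2-iPS (log2 0.95, SE 0.28, adjusted p = 0.0198), under the 2-fold limit. That difference passed both limits, at 1.04 to 1.12, when 1-A3, 1-C3, 2-B1 or 2-C6 was left out. Against ES, iHAC-free iPS was 0.83 higher (interval 0.09 to 1.57, adjusted p = 0.201) and iHAC2-iPS 0.38 higher (interval -0.36 to 1.13, adjusted p = 0.463). By quantitative RT-PCR, the paper reports p53, Ink4a, Arf and Cip1 (Cdkn1a) in iHAC1-iPS and iHAC2-iPS cells as near ES levels and not raised. That assay was scaled to Nat1 and to B6ES and measured Ink4a and Arf apart. The arrays differ from it for Cdkn1a and Cdkn2a in iHAC1-iPS. For Trp53 they differ in both groups by its brighter probe, which was called lower than in ES (log2 difference -1.02 in iHAC1-iPS and -1.17 in iHAC2-iPS). Its other probe was not called against ES. Beside B6ES alone, at 1.15, Cdkn1a was also higher in every iHAC2-iPS line, at 2.09 to 2.84. The reasons were not tested.

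Loss of iHAC2 went with no single direction in Cdkn2a. The lines 2-E and 2-N differed from F-E4 and F-N7 by -0.96 and -0.90, whereas 2-B1 and 2-C6 differed from F-B1 and F-C5 by 0.05 and 0.03. The mean difference was -0.45 (interval -1.05 to 0.16, adjusted p = 0.419). The lines 2-B1 and 2-N shared a slide, as did 2-C6 and 2-E, each with the iHAC-free lines derived from them. The cause of the split between lines was not tested.

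**Figure D4:**
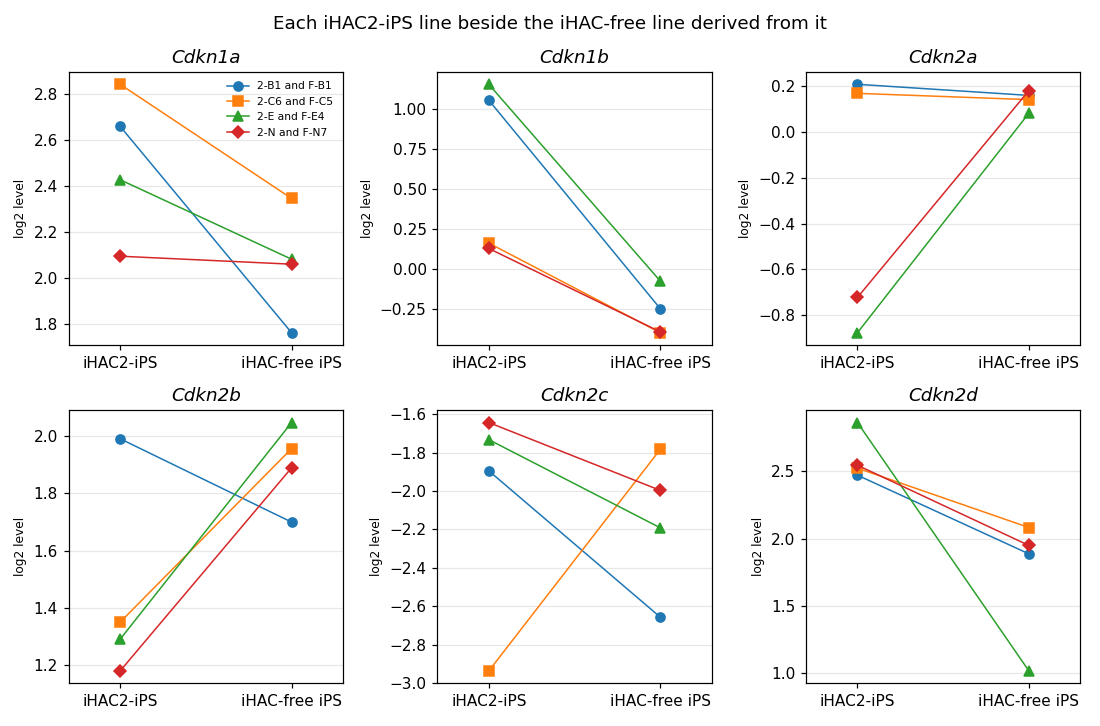
Log2 level (y axis) of each inhibitor gene in the 4 iHAC2-iPS lines and the iHAC-free line derived from each (lines join pairs). Cdkn1a, Cdkn1b and Cdkn2d were lower in the iHAC-free line of every pair, whereas Cdkn2a was clearly lower before the loss of iHAC2 in 2-E (-0.88) and 2-N (-0.72). With line of origin as a block in limma, the adjusted p was 0.411 for Cdkn1a, 0.299 for Cdkn1b and 0.365 for Cdkn2d. The share of all probes with the same direction in every pair was not counted.

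Cdkn2b, the neighbour of Cdkn2a and the gene of p15/Ink4b, a known target of TGF-beta signalling, was not lowest in MEF. Its level was 2.24 in MEF, 0.81 in B6ES, 1.94 in TT2 and 2.66 in 20D17, the highest array. It was 1.70 in 1-A3, 1.94 in 1-B, 1.73 in 1-C3 and 2.10 in 1-D6, then 1.99 in 2-B1, 1.35 in 2-C6, 1.29 in 2-E and 1.18 in 2-N, and 1.70 in F-B1, 1.96 in F-C5, 2.05 in F-E4 and 1.89 in F-N7. The ES lines were further apart (SD 0.80) than the lines within iHAC1-iPS (0.19), iHAC2-iPS (0.37) or iHAC-free iPS (0.15), and no comparison was called. The comparisons with ES rested on which ES line was used: iHAC1-iPS minus ES was 0.50 (interval -0.15 to 1.14), but -0.07 without B6ES and 1.06 (adjusted p = 0.0396) without TT2. Between iHAC2-iPS and iHAC-free iPS the difference was -0.45 (interval -0.97 to 0.08, adjusted p = 0.349), and 2-B1 was the 1 line of 4 above its iHAC-free partner.

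On chromosome 4 the measured neighbours of the pair are Mtap, on the Cdkn2a side, and Dmrta1. Mtap, an enzyme of methionine salvage, was called higher in iHAC1-iPS than in iHAC2-iPS (log2 difference 1.05, adjusted p = 0.0022), where Cdkn2a differed by 0.95 and Cdkn2b by 0.42. Against ES, where Cdkn2a was called in iHAC1-iPS, Mtap differed by 0.40 (adjusted p = 0.269) and Cdkn2b by 0.50 (adjusted p = 0.26). In MEF the 3 genes stood apart: Mtap was at 1.65 against an ES mean of 1.14, Cdkn2b was 0.86 above its ES mean, and Cdkn2a differed from its ES mean by -2.04.

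Cdkn2c, the gene of p18/Ink4c, was higher in MEF than in any other array and varied widely among the iPS lines. By its brighter probe (chr4:109333779-109333838, mm9, minus strand) the level was -0.10 in MEF, -2.19 in B6ES, -2.25 in TT2 and -1.94 in 20D17. The iHAC1-iPS line 1-A3 stood at -0.84, above 1-B at -2.18, 1-C3 at -2.39 and 1-D6 at -1.76. The iHAC2-iPS lines were -1.90 in 2-B1, -2.94 in 2-C6, -1.73 in 2-E and -1.64 in 2-N, and the iHAC-free lines -2.66 in F-B1, -1.78 in F-C5, -2.19 in F-E4 and -1.997 in F-N7. The second probe overlaps the first and gave -0.36 in MEF and -1.22 in 1-A3. No comparison of Cdkn2c was called, and its widest log2 difference was 0.43, in iHAC1-iPS against ES (interval -0.52 to 1.39, adjusted p = 0.53).

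Cdkn2d, the gene of p19/Ink4d, was higher in the lines with an artificial chromosome than in the lines that had lost it. Its level (chr9:21092980-21093039, mm9, minus strand) was 2.33 in 1-A3, 2.52 in 1-B, 2.32 in 1-C3 and 2.22 in 1-D6, and 2.47 in 2-B1, 2.52 in 2-C6, 2.86 in 2-E and 2.54 in 2-N. It was 1.89 in F-B1, 2.08 in F-C5, 1.02 in F-E4 and 1.95 in F-N7, 1.88 in B6ES, 1.60 in TT2, 1.94 in 20D17 and 2.23 in MEF. All 8 lines that carried iHAC1 or iHAC2 were above all iHAC-free, ES and 20D17 arrays, but MEF, without a vector, lay just above 1-D6. The share of all probes that separate the arrays in this way was not counted. F-E4 was the lowest array of all.

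The differences in Cdkn2d were under 2-fold. It was 1.53-fold higher in iHAC1-iPS than in iHAC-free iPS (log2 0.62, SE 0.21, adjusted p = 0.0373), 1.82-fold higher in iHAC2-iPS than in iHAC-free iPS (log2 0.87, SE 0.21, adjusted p = 0.0732) and 1.81-fold above ES in iHAC2-iPS (log2 0.86, SE 0.26, adjusted p = 0.0512). Each iHAC2-iPS line exceeded its iHAC-free partner, by 0.44 to 1.85, and the difference was 1.14 on one shared slide and 0.59 on the other. Against ES, iHAC-free iPS differed by -0.01 (interval -0.57 to 0.55) and iHAC1-iPS by 0.61 (interval 0.04 to 1.17, adjusted p = 0.117). The iHAC1-iPS and iHAC2-iPS groups differed by -0.25 (interval -0.71 to 0.21), with overlapping arrays.

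**Figure D5:**
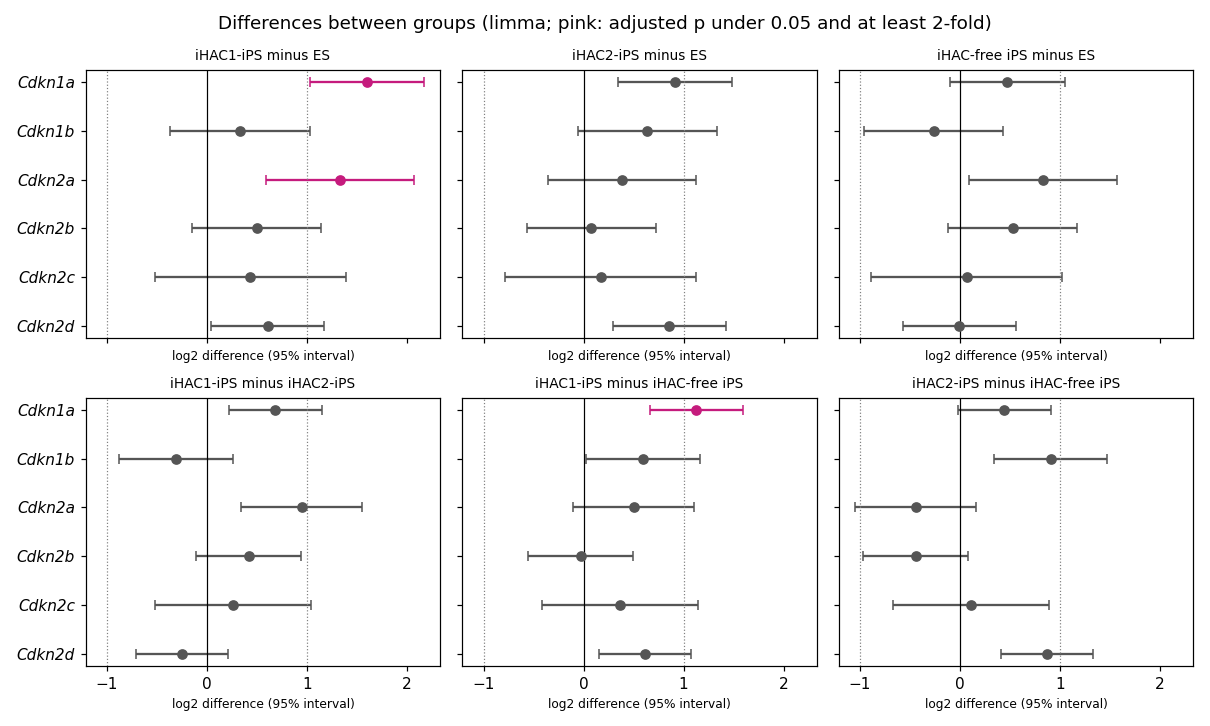
Log2 differences (x axis, first group minus second, with 95% intervals) of the 6 inhibitor genes in the 6 comparisons between replicated groups, with dotted lines at 2-fold. Pink marks the 3 differences called, Cdkn1a and Cdkn2a in iHAC1-iPS against ES and Cdkn1a in iHAC1-iPS against iHAC-free iPS.

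Counts over the 6 genes used the probe that stood for each. Of these genes, 2 were called higher and 0 lower in iHAC1-iPS against ES. In iHAC1-iPS against iHAC-free iPS 1 was called higher and 0 lower, where 20.1% of all probes were called. Between iHAC1-iPS and iHAC2-iPS 0 of 6 were called by limma, with 2 at an unadjusted p under 0.05, against 20% of all probes called. In iHAC2-iPS against ES 0 were called (2 at an unadjusted p under 0.05) beside 6.8% of probes, in iHAC-free iPS against ES 0 (1 unadjusted) beside 0.363%, and in iHAC2-iPS against iHAC-free iPS 0 (2 unadjusted) beside 0.818%. The median log2 difference of the 6 genes was 0.55 in iHAC1-iPS against ES and 0.51 in iHAC2-iPS against ES, with medians over all probes of 0.04 and 0.06, and 0.27 in iHAC-free iPS against ES with 0.03 over all probes. The comparisons with ES share the same 2 ES arrays.

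The single MEF array was at least 2-fold above the ES mean for Cdkn1a (6.15-fold) and Cdkn2c (4.35-fold) and at least 2-fold below it for Cdkn2a (4.1-fold), 3 of 6 genes, while 42% of all probes differed that much. Cdkn1b, Cdkn2b and Cdkn2d differed by 1.24-fold, 1.82-fold and 1.41-fold. The retroviral line 20D17 was at least 2-fold above the ES mean for Cdkn1a (2.05-fold) and Cdkn2b (2.45-fold), 2 of 6 genes beside 10.8% of all probes, although both excesses depended on the ES line, at 0.59 and 0.72 on the log2 scale against TT2 alone. Cdkn1b was 1.76-fold lower in 20D17 than the ES mean.

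Trp53 is the gene targeted by the hairpin of iHAC2, and its 2 probes disagreed: arrays of iHAC1-iPS and iHAC2-iPS overlapped by the brighter probe and not by the other. The brighter probe (chr11:69403134-69403193, mm9) gave 0.61 in 2-B1, 1.41 in 2-C6, 0.70 in 2-E and 1.07 in 2-N, and 0.96 in 1-A3, 1.03 in 1-B, 1.25 in 1-C3 and 1.12 in 1-D6. It gave 0.46 in MEF, 2.19 in B6ES, 2.04 in TT2, 1.60 in 20D17, and 1.92 in F-B1, 0.92 in F-C5, 1.92 in F-E4 and 1.20 in F-N7. By this probe Trp53 was lower than in ES in both iHAC1-iPS (log2 difference -1.02, adjusted p = 0.0294) and iHAC2-iPS (-1.17, adjusted p = 0.0295), and iHAC1-iPS minus iHAC2-iPS was 0.15 (adjusted p = 0.659). The other probe (chr11:69393959-69394017) gave a range of 0.18 to 0.71 in iHAC2-iPS, 0.87 to 1.35 in iHAC1-iPS, 0.21 to 0.39 in iHAC-free iPS and 0.69 to 0.92 in ES, without overlap between iHAC1-iPS and iHAC2-iPS (difference 0.52, adjusted p = 0.0172) and with no call against ES.

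Mdm2, the ubiquitin ligase that p53 induces and that Arf binds, was not called by either probe. Its brighter probe was highest in MEF, at 3.65, and differed by -0.48 both for iHAC1-iPS minus iHAC2-iPS (adjusted p = 0.0465) and for iHAC1-iPS minus iHAC-free iPS (adjusted p = 0.0493), the opposite sign to Cdkn1a, and the other probe was also lower in iHAC1-iPS. Cdkn1c, the remaining Cip/Kip gene (p57/Kip2), was highest in MEF at 4.96 and ranged from 1.40 in 1-D6 to 4.53 in 1-B within iHAC1-iPS, with no comparison called.

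Of 19 genes that regulate the inhibitors, 4 were called higher and 3 lower in iHAC1-iPS than in ES, and 1 higher and 1 lower in iHAC2-iPS than in ES. In iHAC-free iPS against ES 0 of the 19 were called by limma, with 3 at an unadjusted p under 0.05. Over all probes 14.3%, 6.8% and 0.363% were called in these comparisons, so the counts in iHAC2-iPS and iHAC-free iPS are near the background share. Bmi1, a Polycomb protein known to repress Cdkn2a, was on the log2 scale 3.05 above ES in iHAC1-iPS (SE 0.40, adjusted p = 0.000482), where Cdkn2a was also higher. Cbx7, another Polycomb protein known to repress that gene, was lower in iHAC1-iPS (log2 difference -3.89, SE 0.67, adjusted p = 0.00216). In MEF, where Cdkn2a was lowest, Cbx7 was at -3.84 (ES mean 3.15) and Bmi1 at -0.09 (ES mean -3.16). Whether either protein acted on Cdkn2a in these cells was not tested. Smad3, a transducer of TGF-beta signals, was 1.66 above ES in iHAC1-iPS (adjusted p = 0.000531), while Cdkn2b, named above, was not called. Myc, whose protein represses Cdkn1a and Cdkn2b and which both vectors carry, was 4.73 higher in iHAC1-iPS and 2.70 higher in iHAC2-iPS than in ES by its brightest probe. Another Myc probe went the other way, in iHAC1-iPS against ES (difference -2.89, adjusted p = 0.000621) and in iHAC2-iPS against ES (-2.07, adjusted p = 0.0112), and vector and endogenous messages were not separated here. Of the other genes of this list that met the naming rule, Tbx3 differed by -2.49 in iHAC1-iPS against iHAC-free iPS and Ets1 by 1.66 in iHAC1-iPS against iHAC2-iPS. Foxo3 was called lower in iHAC1-iPS in both of these comparisons, but its probe was well above background on 0 of 4 iHAC1-iPS, 2 of 4 iHAC2-iPS and 3 of 4 iHAC-free arrays, so no fold is given.

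Among 19 genes of the G1/S engine on which the inhibitors act, 3 were called higher and 2 lower in iHAC1-iPS than in ES, and 4 higher and 0 lower in iHAC1-iPS than in iHAC2-iPS. Over all probes 14.3% and 20% were called in these comparisons, so the second count is near the background share. Ccnd2, a D-type cyclin bound by the Cdk4 and Cdk6 that Ink4 proteins target, exceeded its ES level in iHAC1-iPS by 2.02 (SE 0.41, adjusted p = 0.00562), and E2f2 by 1.97 (SE 0.35, adjusted p = 0.00256). Rb1, the substrate of those kinases, was higher by 1.54 (adjusted p = 0.00726), whereas Ccne1, a cyclin of the Cdk2 complexes that Cip/Kip proteins hold, was lower (difference -1.27, adjusted p = 0.0246). Cdk6 and Ccne2 were higher in iHAC1-iPS than in iHAC-free iPS by 2.51 and 1.60. In iHAC2-iPS against iHAC-free iPS 0 of the 19 were called, with 2 at an unadjusted p under 0.05. Of 12 S-phase genes, 1 was called in iHAC1-iPS against ES, beside 14.3% of all probes. It was Mcm3, a helicase subunit, which was lower (difference -1.04, adjusted p = 0.00164). The others were not called in any comparison. By limma, however, 7 of the 12 had an unadjusted p under 0.05 in iHAC1-iPS against ES. The count was 8 in iHAC1-iPS against iHAC2-iPS and 8 in iHAC1-iPS against iHAC-free iPS. Against ES, 3 of the 12 were higher in iHAC1-iPS, and the list's median was -0.27 beside 0.04 over all probes.

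Over the 16 arrays, the levels most like that of Cdkn1a were those of Sfxn3 (Pearson r = 0.961), Rcan2 (0.957) and Ccng1 (0.956), and for Cdkn2a those of Prl2c5 (0.885), Prl2c3 (0.875) and Selenov (0.869). For Cdkn2b they were Dock4 (0.932), Gsn (0.931) and Lbh (0.922), and for Cdkn2c Ankrd44 (0.92), Gla (0.895) and Sec22c (0.893). Cdkn1b was most like Ube2e2 (0.881), 1190002F15Rik (0.871) and Phf8 (0.868), and Cdkn2d most like Fam219b (0.855), Tmem237 (0.832) and Try5 (0.83). These correlations are descriptions of arrays that share cell type, scan session and lines of origin, and were picked as the highest of all probes above background on at least 8 arrays. The pair of Cdkn1a and Cdkn2a shows how much 1 array can weigh, with r = -0.09 over 16 arrays and 0.74 without MEF. For Ccng1, the like probe was higher in MEF (4.13) than on any other array, but a second Ccng1 probe was not, at 3.27 in MEF against 4.55 in 2-E.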

How the data were processed

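Each of 16 samples was hybridised by the authors to 1 Agilent 1-colour mouse array. The deposited intensity values are Agilent's processed signals after background subtraction, extracted per the file headers with Feature Extraction 10.7.1.1 (first scan session) and 10.7.3.1 (second). The deposited log2 value table, centred for each probe by the authors, gave the same differences and was an alternative. The deposited files' outlier marks and background marks (other columns) were used as filters.

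Control and outlier spots were removed, spots of a probe averaged on the log2 scale, and each array's 75th percentile subtracted. Probes well above background on at least 1 array (31415 of 41174) entered 1 limma 3.58.1 fit (R 4.3.3) of 6 groups. A call needed an adjusted p under 0.05 and at least 2-fold. MEF and 20D17 have 1 array each and were not tested. Replicates are clones in the iPS groups and lines of different strains in ES, so p-values measure the spread between these. Having 1 array per line limits precision. The probe with the highest mean stood for a gene. On simulated data for iHAC1-iPS against ES, 65% of 100 probes changed by 2 on the log2 scale were recovered among 31387. Smaller changes, such as those of the inhibitor genes by the probes that stood for them, were not simulated, so this recovery does not apply to them.

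The named genes were the members, list genes called in at least 1 comparison (up to 6 a list by size; Trp53, Mdm2 and Cdkn1c always), genes next to members, and the 3 genes most alike. Smad3 was added for Cdkn2b after its values were seen. The members and lists were chosen with earlier results of these data known. Because each iHAC-free line came from an iHAC2-iPS line, line of origin was a replicate block in one alternative. Deviations of paired lines from their group means correlated at -0.22 to 0.08.

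Probe positions are the files' own, on mm9. Promoter and miRNA sequences are RefSeq's (GRCm38.p6), and primer sequences are from the study's supplementary table.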

Additional observations from a re-analysis of the deposited data

Results flagged for a closer look

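In 111 groups of 4 arrays (37 probes of the inhibitor genes and the named genes), 7 groups had 1 array far from the others by a test that flags about 1 in 20 by chance. Cdkn1a was lower in 1-C3 (3.01) than in the other iHAC1-iPS lines, the nearest of which was 3.23. The second Cdkn2c probe was lower in 2-C6 (-3.36) than in the other iHAC2-iPS lines (nearest -2.09). The Cdkn1b probe that was above background on 1 array only was lower in 1-D6 (-8.05, nearest -6.64) and F-N7 (-7.43, nearest -6.98), all 4 of these values below background. Cdkn1c was higher in 1-B (4.53) than in the other iHAC1-iPS lines (nearest 1.88), Col3a1 lower in 1-C3 (2.34, nearest 3.80), and Dppa5a lower in F-B1 (8.77, nearest 9.04).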

How the results depend on the processing

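The 6 counts of called inhibitor genes held under every change of scaling, background correction, filter or samples fitted, and with the mean over a gene's probes. With the dimmer Cdkn1b probe that was above background on all arrays, Cdkn1b was called in iHAC1-iPS against iHAC2-iPS. With slide as a fixed block 1 gene, Cdkn1a, was called in iHAC1-iPS against ES. In that fit 1-D6 was the only iHAC1-iPS line on the slide of the ES arrays, and the cause of the lost Cdkn2a call was not tested. Leaving out single arrays gave 1 to 3 called genes in iHAC1-iPS against ES, 0 to 1 in iHAC1-iPS against iHAC2-iPS, 0 to 1 in iHAC2-iPS against ES and 0 to 1 in iHAC2-iPS against iHAC-free iPS. A lone ES array was assumed to vary like the other groups. With line of origin as a replicate block, Cdkn1b differed by 0.90 (adjusted p = 0.299) and Cdkn2d by 0.87 (adjusted p = 0.365), and the block changed no call.

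Signs turned only for differences that were not called. In iHAC-free iPS against ES these were Cdkn1b with the mean over its probes (0.052), Cdkn2c with normexp (-0.058), quantile scaling (-0.027) and the mean over its probes (-0.055), and Cdkn2d with normexp (0.026), quantile scaling (0.052) and slide as a random block (0.0062). Over single arrays left out, Cdkn2b ranged from -0.071 to 1.06 in iHAC1-iPS against ES, -0.49 to 0.65 in iHAC2-iPS against ES, -0.042 to 1.09 in iHAC-free iPS against ES and -0.11 to 0.027 in iHAC1-iPS against iHAC-free iPS. Cdkn2c ranged from -0.058 to 0.23 in iHAC-free iPS against ES, -0.058 to 0.46 in iHAC1-iPS against iHAC2-iPS and -0.061 to 0.40 in iHAC2-iPS against iHAC-free iPS, and Cdkn2d from -0.15 to 0.23 in iHAC-free iPS against ES. The cause was not tested.

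The calls over all probes moved more than those of the inhibitors. Against ES, iHAC2-iPS had 2136 probes called in the fit of all groups and 19 with only the compared groups, and iHAC-free iPS 114 and 14. The replicate block left 0 of 257 between iHAC2-iPS and iHAC-free iPS. Normexp moved the median of all probes to -0.14, 0.19 and 0.15 in the 3 comparisons with iHAC-free iPS, and Cdkn1a kept its call there in iHAC1-iPS against iHAC-free iPS. Signal near background limits the dim Cdkn1b probes.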
